A study of Mus musculus with 5 samples.

Results

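The cytosolic heat shock proteins are chaperones that bind unfolded or partly folded proteins in the cytosol and nucleus. A set of 10 genes was chosen by symbol: the Hsp70 genes Hspa1a, Hspa1b and Hspa8, the Hsp90 genes Hsp90aa1 and Hsp90ab1, the co-chaperone genes Hsph1 and Dnajb1, the small heat shock protein genes Hspb1 and Hspb8, and the transcription factor gene Hsf1. Of these 10 genes, 9 had a row among the 11048 genes of the table, and all 9 passed the filter on low values. Hspa1a matched no row and was not analysed here. The rule matches symbols and uses no measured value, but the set was proposed with earlier results of these data known.

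Liver RNA was sequenced from db/db mice, which become obese and diabetic because their leptin receptor is defective. The SR4 group held 2 libraries, from db/db mice that had acclimatized for 1 week and then received SR4 at 10 mg/kg body weight by oral gavage over 5 weeks. The vehicle group held 3 libraries, from db/db mice given the vehicle control for 5 weeks on the same schedule. SR4 is a compound that the series names a proton transporter activated by fatty acids, and the comparison asked how it changed liver expression. The db/db genotype is shared by both groups and is given by the series' design text. The sources used here give neither age nor sex, and no lean or untreated group was analysed. Whether every library came from a separate animal is not stated, so the p-values reflect the spread among libraries, which may be technical.

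Values are normalised counts: the gene counts that the authors had brought to a common library total, divided by a scaling factor (TMM) per library. Estimated read totals were 28100000 and 26400000 reads for SR4 libraries 1 and 2, and 24300000, 26800000 and 22900000 reads for vehicle libraries 1, 2 and 3. Changes are log2 fold changes, SR4 minus vehicle, fitted with limma on log2(value + 1), which understates the change of low genes. A gene passed when its limma p-value, adjusted by Benjamini-Hochberg over 10542 genes, was under 0.05.

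Chaperones of this set work in relays. Small heat shock proteins hold unfolding proteins without using ATP, Hsp70 with its J-domain partners refolds them in cycles of ATP hydrolysis and nucleotide exchange, and Hsp90 acts late in the maturation of kinases and steroid receptors. The transcription factor HSF1 is held inactive by chaperones in unstressed cells and, on heat or other protein damage, forms trimers that bind heat shock elements, inverted repeats of the bases GAA in promoters. Some members are made all the time in most tissues, among them Hspa8 and Hsp90ab1, while others, among them Hspa1a, Hspa1b and Hspb1, are known as strongly heat-inducible.

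The RefSeq table of promoters (GRCm38.p6) held 6 of the 10 genes: Hspb1, Hspb8, Hspa1a, Hspa1b, Hsph1 and Dnajb1. The 250 bases before the start are printed for the small heat shock protein genes, whose values lay on opposite sides, and for Hspa1b, the member with the second largest change. Each is written 5′ to 3′ on the gene's own strand, in lower case, with a pair of inverted GAA repeats in capitals, searched as GAANNTTC and TTCNNGAA, each of which is its own reverse complement. The printed window of Hspb1 lies at chr5:135887669-135887918 (plus strand), that of Hspa1b at chr17:34959239-34959488 (minus strand) and that of Hspb8 at chr5:116422865-116423114 (minus strand).
Hspb1: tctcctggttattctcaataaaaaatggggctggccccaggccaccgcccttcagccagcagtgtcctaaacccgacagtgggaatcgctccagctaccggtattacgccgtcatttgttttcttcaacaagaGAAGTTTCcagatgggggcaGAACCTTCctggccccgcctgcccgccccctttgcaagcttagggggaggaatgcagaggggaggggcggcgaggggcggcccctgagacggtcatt
Hspa1b: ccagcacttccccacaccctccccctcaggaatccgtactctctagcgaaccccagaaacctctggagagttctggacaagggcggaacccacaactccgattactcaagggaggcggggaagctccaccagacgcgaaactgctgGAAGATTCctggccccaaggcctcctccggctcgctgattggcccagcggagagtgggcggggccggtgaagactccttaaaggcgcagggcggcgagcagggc
Hspb8: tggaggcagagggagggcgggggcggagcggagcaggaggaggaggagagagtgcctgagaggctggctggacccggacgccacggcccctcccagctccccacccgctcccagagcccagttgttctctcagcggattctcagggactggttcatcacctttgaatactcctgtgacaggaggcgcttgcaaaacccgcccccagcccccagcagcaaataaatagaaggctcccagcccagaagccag

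The Hspb1 window held 2 such pairs, GAAGTTTC at bases 117 to 110 and GAACCTTC at bases 97 to 90 before the start. Hspa1b held 1 pair, GAAGATTC at bases 104 to 97, and the Hspa1a window, which differed from it at 3 of 250 bases, held the same pair at the same place. Hsph1 held 1 pair, TTCTCGAA, and Dnajb1 and Hspb8 held 0. Of 32851 windows of this length in the RefSeq table, 12.8% held at least 1 pair and 1.46% held at least 2. A run of 3 alternating repeats, also searched, was found in 0 windows of these genes and in 0.466% of all windows. Only exact letters were searched, so an element with changed bases would be missed. The matches are of letters and say nothing of whether a factor was bound.

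Of the 9 genes, Hspb1 alone passed, and it fell in the SR4 livers to 0.252 of the vehicle level. Hspb8, the other small heat shock protein, and Hsp90aa1, the inducible Hsp90, lay outside the vehicle range in both SR4 libraries, Hspb8 above and Hsp90aa1 below, but did not pass. Hspa1b lay below the vehicle range in both SR4 libraries, with a wide spread, and did not pass. Hspa8, Hsp90ab1, Hsph1, Dnajb1 and Hsf1 had overlapping groups. Thus 1 of 9 genes was called, lower in SR4 livers, where 1.32% of all genes tested were called in either direction, 0.436% higher and 0.882% lower. Without vehicle library 2, vehicle library 3, SR4 library 1 or SR4 library 2, 0 of the 9 genes were called, and 8, 5, 192 and 7 of all genes. A fitted level at least 2-fold lower was seen for Hspb1 and Hspa1b, and for 4% of all genes tested. The SR4 and vehicle libraries did not overlap in 4 of the 9 genes (44.4%), 1 higher and 3 lower in SR4 livers, against 41.6% of all genes tested (21.1% higher and 20.5% lower), so that share was near the background. The median change of the 9 genes was -0.06, against -0.01 for all genes tested. When only the totals were made equal, without the scaling factor, these medians were -0.18 and -0.13.

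**Figure D1:**
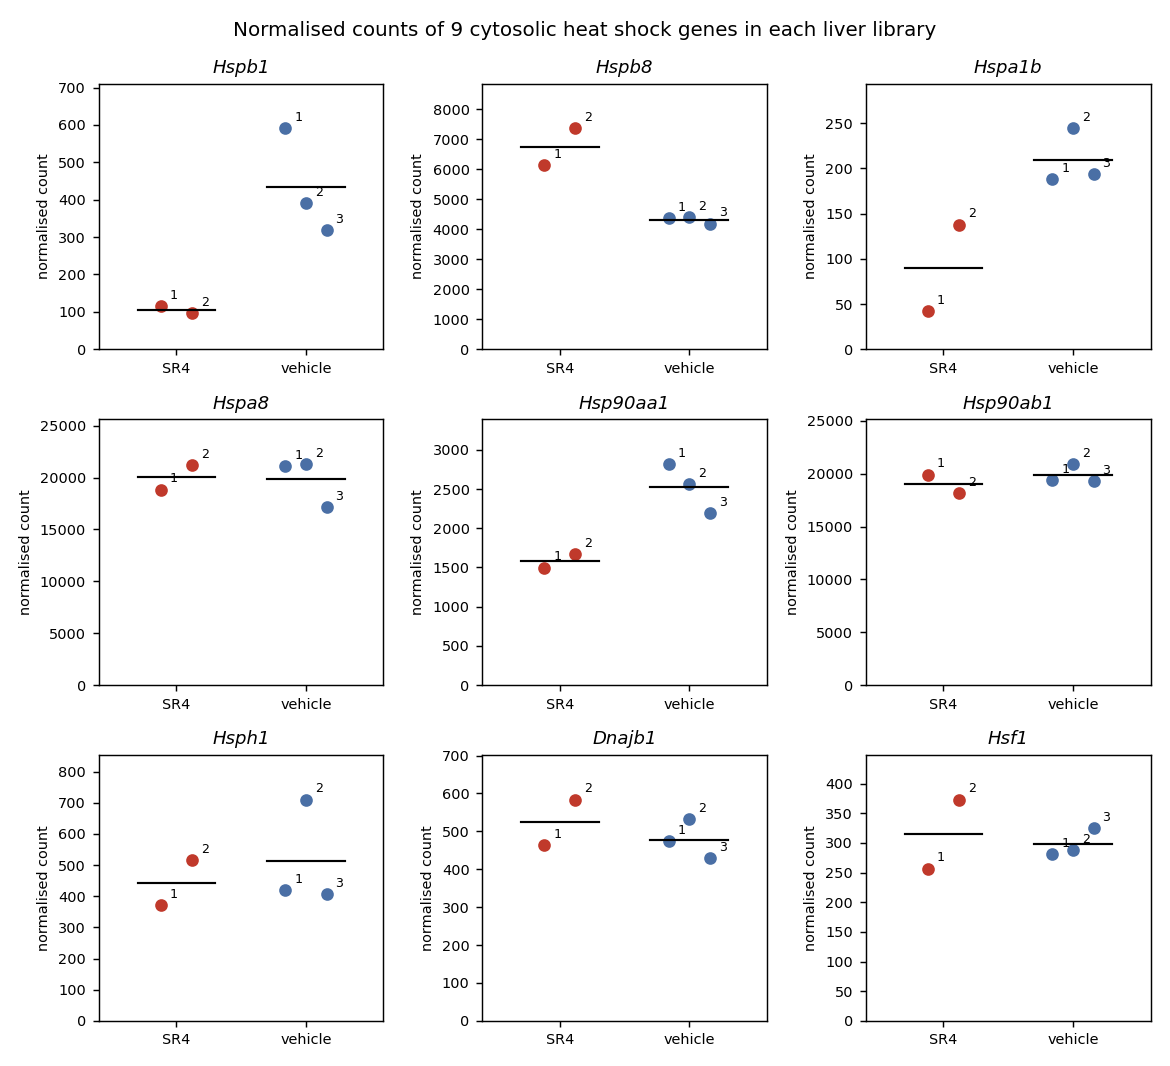
Normalised counts of each of the 9 heat shock genes (vertical axes, each starting at 0) in SR4 libraries 1 and 2 (red) and vehicle libraries 1, 2 and 3 (blue); points are libraries and the bar is the group mean. Hspb1, Hspa1b and Hsp90aa1 were lower in both SR4 libraries than in any vehicle library, Hspb8 was higher, and the other 5 genes overlapped.

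Hspb1 encodes a small heat shock protein, called HSP25 in mice and HSP27 in humans, that forms large oligomers, keeps unfolding proteins soluble and acts on the actin skeleton. The gene lies on chromosome 5 (GRCm38, 135887919 to 135889563, plus strand; GENCODE M21, protein-coding). Its normalised counts were 115 and 95.78 in SR4 libraries 1 and 2, against 592.2, 391 and 319.1 in vehicle libraries 1, 2 and 3. The highest SR4 library lay below the lowest vehicle library, and the spread within the SR4 pair was small beside the gap. The means were 105.4 ± 13.6 in SR4 livers (SD, n = 2) and 434.1 ± 142 in vehicle livers (SD, n = 3). The fitted change was -1.99 (SE 0.27), a level 3.97-fold lower in SR4 livers, with a 95% interval of 2.54-fold to 6.2-fold. The limma adjusted p was 0.0387. In whole liver, fewer cells of a type and less RNA per cell cannot be told apart. Of all genes tested, 1.34% had a larger absolute change, and Hspb1 was the 48th gene by p. The direction was the same with each library left out, at -2.19 to -1.74, but the call was lost without vehicle library 2, vehicle library 3, SR4 library 1 or SR4 library 2, with limma adjusted p of 0.101, 0.0599, 0.0503 and 0.159. It was also lost in limma-voom on estimated reads, at an adjusted p of 0.0793.

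Hspb8 encodes a small heat shock protein that works with the co-chaperone BAG3 to hand damaged proteins to autophagy. It lies on the same chromosome (GRCm38, 116408491 to 116422864, minus strand; protein-coding). Its normalised counts were 6135 and 7385 in SR4 libraries 1 and 2, against 4367, 4409 and 4189 in vehicle libraries 1, 2 and 3. Both SR4 libraries lay above all 3 vehicle libraries, which differed little from each other. The means were 6760 ± 884 in SR4 livers (SD, n = 2) and 4322 ± 117 in vehicle livers (SD, n = 3). The fitted change was 0.64 (SE 0.13), 1.56-fold with a 95% interval of 1.26-fold to 1.93-fold, and the limma adjusted p of 0.0673 missed the threshold. Bag3, the partner of HSPB8, had 903.5 and 952.9 normalised counts in SR4 livers, against 957.7, 1071 and 1245 in vehicle livers, and its adjusted p in limma was 0.382. Bag3 was named here for that partnership, after its values were seen. In 50-base windows, 0% of the Hspb1 transcript was found in Hspb8.

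Hspa1b encodes the stress-inducible Hsp70, which refolds proteins and is made in large amounts after heat shock. It is a protein-coding gene with 1 exon on chromosome 17 (GRCm38, 34956436 to 34959238, minus strand). Its normalised counts were 42.24 and 137.8 in SR4 libraries 1 and 2, against 188.5, 244.9 and 193.6 in vehicle libraries 1, 2 and 3. Both SR4 libraries lay below every vehicle library, and SR4 library 1 was far below SR4 library 2. The means were 90.03 ± 67.6 in SR4 livers (SD, n = 2) and 209 ± 31.2 in vehicle livers (SD, n = 3). The fitted change was -1.43 (SE 0.48), with a limma adjusted p of 0.164, and it was -0.59 without SR4 library 1 and -2.27 without SR4 library 2. Hspa1b has a near-identical neighbour, Hspa1a (chromosome 17, 34969190 to 34972156, minus strand). Of the 50-base windows of the Hspa1b transcript, 62.3% occurred in Hspa1a, and the estimated reads of Hspa1b were fractional in every library, at 44.4 and 136.6 in SR4 libraries and 193.4, 259.2 and 176.6 in vehicle libraries. How reads common to both genes were assigned is not stated in the labels, so the Hspa1b values are uncertain.

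Hspa8 encodes the constitutive Hsp70, which folds new proteins, strips clathrin from vesicles and carries proteins to the lysosome. It lies on chromosome 9 (GRCm38, 40800984 to 40810087, plus strand; protein-coding). Its normalised counts were 18840 and 21200 in SR4 livers, against 21100, 21340 and 17120 in vehicle livers. The groups overlapped, and vehicle library 3 was the lowest of the 5. The fitted change was 0.02, with a 95% interval of -0.39 to 0.42 and a limma adjusted p of 0.966. Its sign turned when only the totals were made equal, at -0.1. Exons of Hspa8 overlap 3 small nucleolar RNA genes on the same strand, each over about 2% of the exonic length.

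Hsp90aa1 and Hsp90ab1 encode the inducible alpha form and the constitutive beta form of cytosolic Hsp90, which hold kinases and steroid receptors ready for activation. Hsp90aa1 lies on chromosome 12 (GRCm38, 110690605 to 110702728, minus strand) and Hsp90ab1 on chromosome 17 (45567775 to 45573271, minus strand), and both are protein-coding. Hsp90aa1 had 1498 and 1671 normalised counts in SR4 livers, against 2823, 2559 and 2190 in vehicle livers. The SR4 libraries were close together and below the whole vehicle range. Means were 1585 ± 122 in SR4 livers (SD, n = 2) and 2524 ± 318 in vehicle livers (SD, n = 3). The fitted change was -0.67 (SE 0.14), 1.59-fold lower in SR4 livers with a 95% interval of 1.26-fold to 1.99-fold, and the limma adjusted p of 0.0689 missed the threshold.

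Hsp90ab1 had 19910 and 18140 normalised counts in SR4 livers, against 19370, 20940 and 19260 in vehicle livers. The groups overlapped, with a fitted change of -0.06 and a 95% interval of -0.41 to 0.29 (limma adjusted p = 0.845). No 50-base window of the Hsp90aa1 transcript was found in Hsp90ab1 (0%). The estimated reads of Hsp90ab1 were fractional in vehicle libraries 1 and 3, at 19880.4 and 17577.3. They were also fractional in SR4 libraries 1 and 2, at 20777.8 and 17985.4, so the Hsp90ab1 values may be uncertain too. The ratio of Hsp90aa1 to Hsp90ab1 counts was 0.0753 and 0.0921 in SR4 libraries, against 0.146, 0.122 and 0.114 in vehicle libraries. Both SR4 ratios lay below all vehicle ratios. The exact two-sided permutation p of the ratio was 0.1, the smallest that 2 against 3 libraries can give, and this ratio was chosen after the values were seen.

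Hsph1 and Dnajb1 encode partners of Hsp70: HSPH1 is a large Hsp110-type protein that exchanges its nucleotide, and DNAJB1 is a J-domain protein (an Hsp40) that hands it substrates and speeds its ATP hydrolysis. Hsph1 lies on chromosome 5 (GRCm38, 149614287 to 149636376, minus strand) and Dnajb1 on chromosome 8 (83608193 to 83612653, plus strand), and both are protein-coding. Hsph1 had 370.7 and 517.3 normalised counts in SR4 livers, against 419.9, 710.5 and 407.9 in vehicle livers. Vehicle library 2 was high and the groups overlapped. The fitted change of Hsph1 was -0.18, with a 95% interval of -0.85 to 0.5 (limma adjusted p = 0.756), and it was 0.08 without vehicle library 2 and 0.06 without SR4 library 1. Dnajb1 had 464.6 and 583.9 normalised counts in SR4 livers, against 474.4, 531.8 and 428.6 in vehicle livers. The groups overlapped here too, with a fitted change of 0.13 and a 95% interval of -0.24 to 0.49 (limma adjusted p = 0.672), and it was -0.04 without SR4 library 2.

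Hsf1 encodes the heat shock factor itself, which is controlled mainly after translation. The gene lies on chromosome 15 (GRCm38, 76477422 to 76501913, plus strand; protein-coding). Its normalised counts were 256.7 and 373.2 in SR4 livers, against 280.6, 288.1 and 325.5 in vehicle livers. The 2 SR4 libraries lay on either side of the vehicle range. The fitted change was 0.06, with a 95% interval of -0.39 to 0.51 (limma adjusted p = 0.892), and its sign turned to -0.06 when only the totals were made equal.

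**Figure D2:**
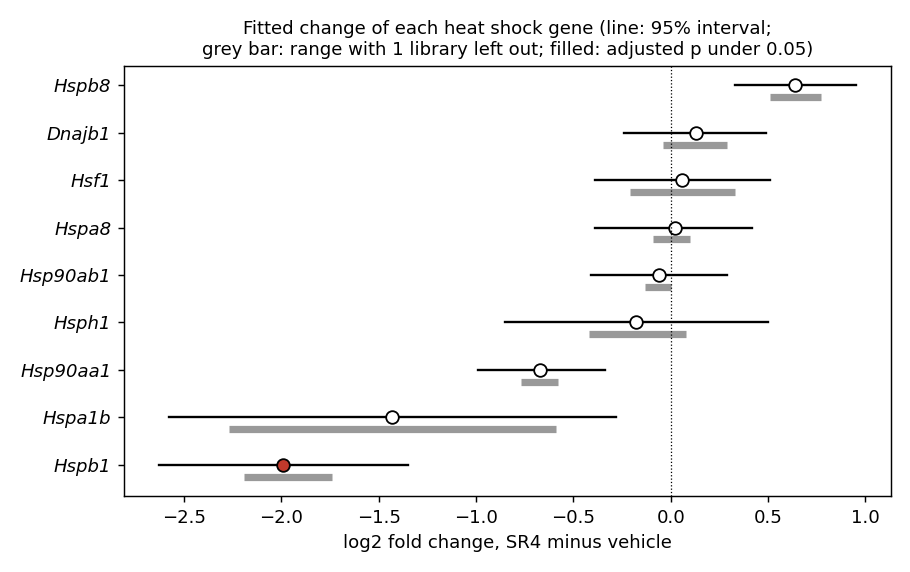
Fitted log2 fold change, SR4 minus vehicle (horizontal axis), of the 9 heat shock genes, with the 95% interval as a black line and the range of the value with each library left out in turn as a grey bar. Hspb1, filled, passed at -1.99; Hspb8 at 0.64, Hsp90aa1 at -0.67 and Hspa1b at -1.43 had intervals clear of 0 but missed the adjusted threshold.

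Divided by exonic length, the levels of the genes differed widely within a liver, and 3 genes stood above the rest. The length counts every base in an exon of any annotated transcript, 4301 for Hspa8 and 7099 for Hsf1. It can exceed the length of the main transcript, so the order across genes depends on this choice. Comparisons of the same gene between groups do not. In SR4 livers the order of mean normalised counts per kilobase was Hsp90ab1 at 6344, Hspa8 at 4655, Hspb8 at 3467, Hsp90aa1 at 403, Dnajb1 at 164, Hspb1 at 102, Hsph1 at 61.1, Hsf1 at 44.4 and Hspa1b at 32.1. In vehicle livers it was Hsp90ab1 at 6621, Hspa8 at 4616, Hspb8 at 2216, Hsp90aa1 at 642, Hspb1 at 421, Dnajb1 at 149, Hspa1b at 74.6, Hsph1 at 70.6 and Hsf1 at 42. The first 3 places were the same in both groups, and no library of these genes overlapped the next gene in the order. Hspb1 stood above Dnajb1 in vehicle livers and below it in SR4 livers. Hspb1 had 112 and 92.9 per kilobase in SR4 libraries, against 574, 379 and 310 in vehicle libraries, while Dnajb1 had 145 and 182 in SR4 libraries, against 148, 166 and 134 in vehicle libraries. Neighbours that overlapped were Hsph1 with Hsf1 and Hsf1 with Hspa1b in SR4 livers, and Hsp90aa1 with Hspb1 and Hspa1b with Hsph1 in vehicle livers.

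**Figure D3:**
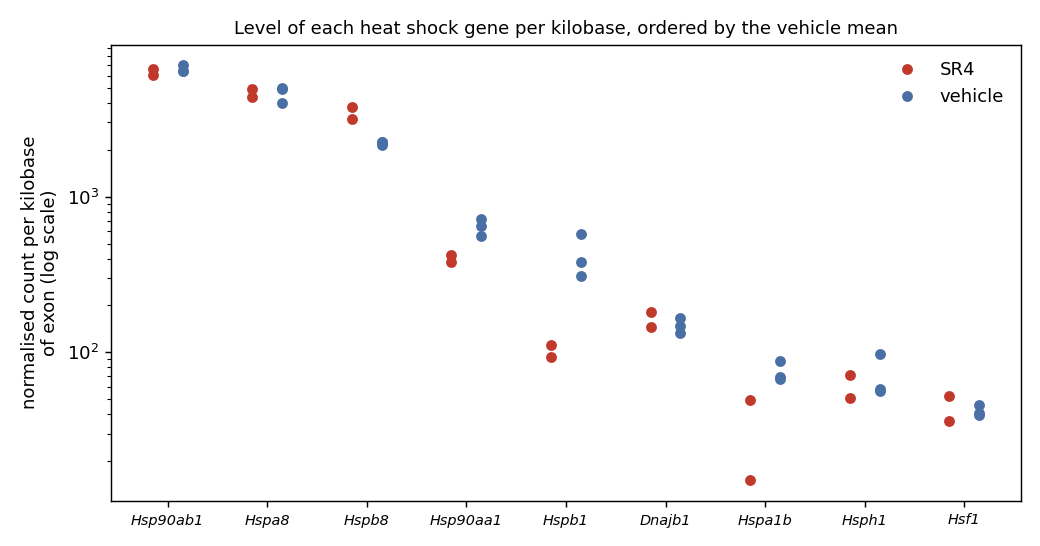
Normalised counts per kilobase of exon (vertical axis, log scale) of the 9 heat shock genes, ordered by the vehicle mean, with 1 point per library for SR4 (red, left of each pair) and vehicle (blue). Lengths count the exons of all annotated transcripts, and the order across genes depends on that choice. Hsp90ab1, Hspa8 and Hspb8 lay highest in both groups, and Hspb1 lay above Dnajb1 in vehicle libraries and below it in SR4 libraries.

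The normalised counts of the 9 genes summed to 47640 and 50100 in SR4 libraries, against 49620, 51420 and 44440 in vehicle libraries, so the sums overlapped. Hspa8 and Hsp90ab1 made up 81.4% and 78.5% of the sum in SR4 libraries, against 81.6%, 82.2% and 81.9% in vehicle libraries. The sum was thus mostly these 2 genes, whose own values overlapped between the groups, and the difference in Hspb1 was small beside it.

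Another 82 chaperone and heat shock genes were counted, most of them cytosolic and some, such as Hspd1, from the list of heat-induced genes described last: 76 had a row, 73 were tested and 0 passed in limma. At an unadjusted p under 0.05, 5 were higher and 4 lower in SR4 livers, where 21.4% of all genes tested lay under that value in either direction. In limma-voom on estimated reads 0 passed as well. Their median change was 0.06, against -0.01 for all genes tested, with a range of -0.84 to 0.59, so that Hspb1 and Hspa1b lay below all 73. The groups did not overlap in 26 of them (35.6%), against 41.6% of all genes tested.

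Of the other Hsp70 and Hsp110 genes, 1 of 5 tested lay above 0 and 4 below, with a median of -0.27. Hspa4l, an Hsp110-type relative of Hsph1, had 248.1 and 298.5 normalised counts in SR4 livers, against 388.7, 398.6 and 320.1 in vehicle livers (limma adjusted p = 0.19). Hspa14, an Hsp70 relative known in humans to work at the ribosome, had 408.1 and 420.5 in SR4 livers, against 504.6, 495.9 and 500.9 in vehicle livers (limma adjusted p = 0.22). Neither passed. In both genes the 2 SR4 libraries lay below the vehicle libraries, as in 20.5% of all genes tested. The groups did not overlap in 3 of the 5 genes (60%), against 41.6% of all genes tested.

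Of the other J-domain genes, 6 of 10 lay above 0, with a median of 0.06. Dnajc7, which binds both Hsp70 and Hsp90, had 1191 and 1188 normalised counts in SR4 livers, against 1021, 1032 and 953.6 in vehicle livers (limma adjusted p = 0.224). Dnaja4 had 55.58 and 52.43 in SR4 livers, against 98.34, 65.11 and 86.58 in vehicle livers (limma adjusted p = 0.276). Of the exchange factors and Hsp70 regulators, 7 of 9 lay above 0, with a median of 0.07. Bag4, whose BAG domain binds Hsp70, had 1112 and 1018 normalised counts in SR4 livers, against 613.8, 803.9 and 717.9 in vehicle livers, with a change of 0.59 and a limma adjusted p of 0.0908. Hspbp1, a nucleotide exchange factor, had 709.9 and 887.4 in SR4 livers, against 589.4, 684.9 and 652.1 in vehicle livers (limma adjusted p = 0.259).

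Of 19 Hsp90 co-chaperone genes, 14 lay above 0, with a median of 0.08. Unc45a, a co-chaperone for myosin folding, had 412.1 and 299.5 normalised counts in SR4 livers, against 495.8, 485.5 and 447.2 in vehicle livers (limma adjusted p = 0.19). Nudcd2 had 492.5 and 501.2 in SR4 livers, against 655.6, 563.9 and 646.6 in vehicle livers (limma adjusted p = 0.192). Both lay below the vehicle range. At an unadjusted p under 0.05 in limma, these 2 genes were lower and 2 others of the list higher, where 21.4% of all genes tested lay under that value. The groups did not overlap in 7 of the 19 genes (36.8%), against 41.6% of all genes tested.

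Of 7 other small heat shock protein genes, 3 passed the filter on low values. Cryab, the alpha B crystallin gene, had 89.27 and 72.69 normalised counts in SR4 livers, against 94.52, 104.4 and 106.9 in vehicle livers (limma adjusted p = 0.437). Hspb6 had 376.6 and 295.4 in SR4 livers, against 264, 297.5 and 356.1 in vehicle livers (limma adjusted p = 0.711). The difference between the change of Hspb1 and those of these relatives was not tested.

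The chaperonin TRiC, which folds actin and tubulin, and prefoldin, which feeds it, lay near 0. Of 8 TRiC subunit genes 6 lay above 0, with a median of 0.07 and a range of -0.04 to 0.2, and the smallest p-values were those of Cct5 at 0.2 and Cct7 at 0.09 log2, with Cct7 turning to -0.03 with only the totals made equal. Of 5 prefoldin genes tested 4 lay above 0, with a median of 0.14. Pfdn4 had 72.7 and 107.9 normalised counts in SR4 livers, against 130.5, 125.6 and 115.1 in vehicle livers (limma adjusted p = 0.311), and Pfdn2 had a change of 0.15. Of 8 heat shock factors and regulators tested, 3 lay above 0 and 5 below, with a median of -0.07, and all had overlapping groups. Hdac6, a deacetylase that acts on Hsp90, was at 0.18 and Ep300, an acetyltransferase that acts on HSF1, was at -0.17 log2. With only the totals made equal, the medians of the J-domain, exchange factor, Hsp90 co-chaperone, small heat shock protein and TRiC lists turned to -0.06, -0.05, -0.04, -0.02 and -0.05. The median of all genes tested moved from -0.01 to -0.13, so these lists stayed above it.

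**Figure D4:**
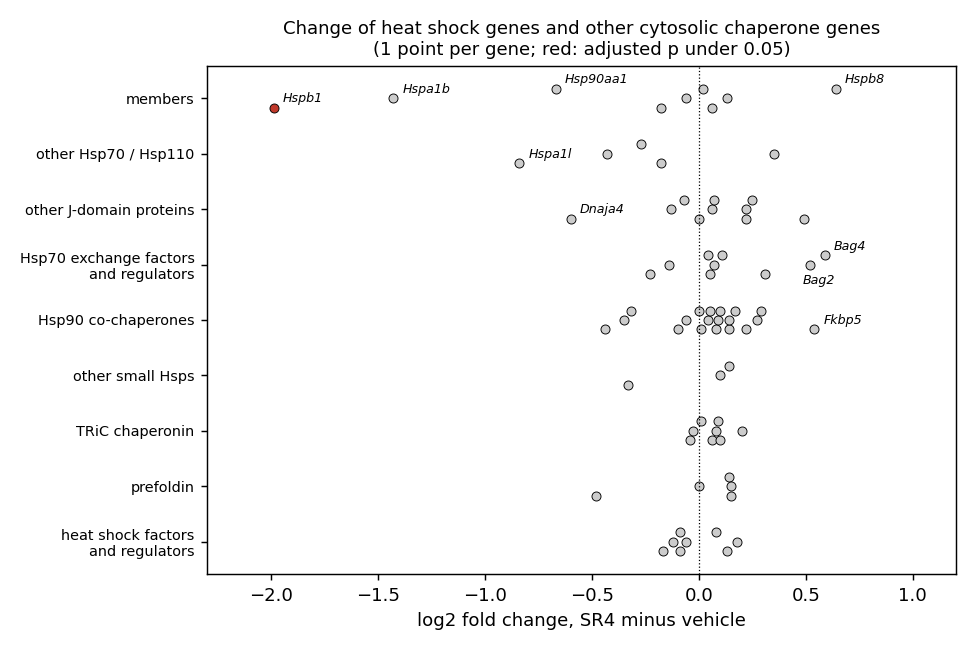
Fitted log2 fold change, SR4 minus vehicle (horizontal axis), with 1 point per gene, of the 9 heat shock genes ("members", top row) and of 8 lists of other cytosolic chaperone and heat shock genes (rows), with the genes farthest from 0 labelled and genes that passed in red. Hspb1, at -1.99, was the only gene shown that passed, and the other lists lay between -0.84 and 0.59.

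A list of 15 other genes commonly reported to be induced by heat in mammalian cells, which shares members with the lists above, had 0 passing genes, 6 above 0 and 9 below, and a median of -0.13. Its smallest p-values were those of Hspa4l and of Hspd1, the mitochondrial Hsp60 gene. Hspd1 had 8656 and 10140 normalised counts in SR4 livers, against 7261, 7706 and 7488 in vehicle livers (limma adjusted p = 0.231). Most of this list lay below 0 without passing, while Hspb1, which is outside it, passed as lower. Hspd1 was above the vehicle range in both SR4 libraries and did not pass.

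Immediate early genes, which respond within minutes to stress and handling, were counted beside these. Of 15 tested, 7 lay above 0 and 8 below, with a median of -0.19. As higher 0 passed and as lower 1, against 0.436% and 0.882% of all genes tested. At an unadjusted p under 0.05 in limma, 3 were higher and 1, Jun, lower in SR4 livers, where 21.4% of all genes tested lay under that value. The gene that passed was Jun, a subunit of the transcription factor AP-1, with 553.8 and 515.3 normalised counts in SR4 livers, against 1763, 1047 and 1335 in vehicle livers. Jun changed by -1.34, with a limma adjusted p of 0.0471. Of 9 temperature-sensitive and clock genes tested, 0 passed, with a median of 0.02, and the smallest p-values were those of Dbp at 0.47 and Ciart at 0.81 log2. Jun lost its call without vehicle library 2, vehicle library 3, SR4 library 1 or SR4 library 2, as Hspb1 did, with limma adjusted p of 0.0798, 0.104, 0.0756 and 0.19. Jun moved in the direction of Hspb1, while the list as a whole went both ways, and its part in the Hspb1 result was not tested.

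Small heat shock proteins and Hsp70 are made in many liver cell types, so markers of those types were counted. The hepatocyte list, with 6 of 6 genes measured, summed to 2337000 to 2863000 normalised counts in SR4 livers, against 1992000 to 2676000 in vehicle livers, and all libraries had the hepatocyte genes. Of its genes, 4 lay above 0 and 2 below, with a median of 0.52, and most of the sum was Alb, the albumin gene. Tat, a tyrosine aminotransferase gene of this list, was the 1 that passed, as higher, at 2.1 log2. Tat and Hbb-bs, named with the erythroid list, each lost their call without vehicle library 2, vehicle library 3 or SR4 library 2, with limma adjusted p up to 0.143 for Tat and 0.13 for Hbb-bs. The stellate cell and fibroblast list, 6 of 6 measured, summed to 5824 to 7760 in SR4 livers, against 7085 to 12030 in vehicle livers. All 6 genes lay below 0, from -1.61 to -0.28 log2, with a median of -0.76 and 0 passing. The Kupffer cell and macrophage list, 5 of 7 measured, summed to 1479 to 2896 in SR4 livers, against 2841 to 3683 in vehicle livers. All 5 genes lay below 0, from -1.35 to -0.21 log2, with a median of -0.61 and 0 passing.

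The erythroid list, 5 of 5 measured, summed to 10580 to 12520 in SR4 livers, against 15680 to 22040 in vehicle livers, and the haemoglobin gene Hbb-bs passed as lower, at -1.17, although reads of near-identical globin genes may be split between them. The endothelial list, 5 of 5 measured, summed to 1850 to 3267 in SR4 livers, against 2337 to 3314 in vehicle livers, with a median of -0.04. Of the 4 skeletal and smooth muscle genes, 3 had a row, 0 were tested, and the smooth muscle gene Myh11 had no row. The 3 with a row, all skeletal, summed to 0 to 1.966 in SR4 livers, against 1.908 to 6.645 in vehicle livers. Smooth muscle was thus not measured by this list. The 4 cholangiocyte genes matched no row, and of 5 lymphocyte genes, 4 neutrophil genes and 4 adipocyte genes 1, 2 and 1 had a row. Most stellate, macrophage and erythroid markers thus lay below 0, the direction of Hspb1. So did 4 of 5 endothelial genes and the 1 tested gene each of the lymphocyte, neutrophil and adipocyte lists. Of all 10542 genes tested, 5378 lay below 0. The part of these cell types in the Hspb1 and Hspa1b results was not tested.

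Of the 9 genes, Hspb1 had the widest range over the 5 libraries, 2.62 on the log2 scale, and the genes most like it were found by the root mean square difference of centred log2 values over these 5 libraries. The nearest was Tbc1d31, at 0.06, with 260.6 and 239 normalised counts in SR4 livers, against 1488, 983.3 and 799.2 in vehicle livers. The next were LOC100503676 at 0.091, the serine protease gene Htra3 at 0.098, Acaca, the acetyl-CoA carboxylase gene of fatty acid synthesis, at 0.14, and Fam131c at 0.144. Acaca had 2804 and 1985 normalised counts in SR4 livers, against 11710, 8560 and 8168 in vehicle livers. Of these 5 genes, Tbc1d31, LOC100503676, Acaca and Fam131c passed in limma, with adjusted p of 0.0343, 0.045, 0.029 and 0.0353, and LOC100503676 lost its call with each of the 5 libraries left out, Tbc1d31 and Fam131c with 4 of them and Acaca with 3. These genes were picked for their likeness to Hspb1 in the same libraries, so their values are a description.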

How the data were processed

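Per the labels' protocols, RNeasy Mini columns gave the liver RNA, of which 500 ng were made into TruSeq RNA V2 libraries, which do not keep the strand. Per the submitters' processing notes, the tools were TopHat2 2.1.1 and Partek and the build GRCm38 (mm10), with no role or order named; the counter and annotation are not given. The deposited signal values are gene read counts that the authors adjusted to a common library total, as the values themselves show. The adjustment was undone to estimate reads. Of 37599 estimates between 1 and 1000 reads, 85.3% were whole within 0.02 reads, so a count test was not used for the main results. The estimates served only for limma-voom, run as an alternative, and for the read values given.

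Columns were grouped by their treatment labels. The table held 11065 rows; 17, with 0.18% of counts, carried a calendar date in place of a symbol and were left out. Values were divided by TMM factors, genes with 10 or more in at least 2 libraries were kept, and log2(value + 1) was fitted with limma 3.58.1 (mean trend, robust empirical Bayes) in R 4.3.3, with Benjamini-Hochberg adjustment over all 10542 genes and a threshold of 0.05. The fit was tested on simulated data with the same spread setting for every gene, so that test does not show how far the calls in these libraries hold. Ratios used an exact permutation test. Coordinates and exonic lengths came from GENCODE M21 (GRCm38) and promoters from RefSeq. Figures used Python 3.11.15 and matplotlib 3.10.9.

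The members and lists were chosen with earlier results of these data known. Genes named were the members and, of each list other than the markers, the genes that passed or else the 2 with the smallest p. Of the marker lists, passing genes and Alb were named. The 5 genes nearest to the member with the widest range were also named, and Bag3 was added. Alternatives were other scalings, filters, pseudocounts and shrinkage, the replicate number as a block, each library left out and, chosen after seeing the data, limma-voom on estimated reads. Precision rests on 2 and 3 libraries.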

Additional observations from a re-analysis of the deposited data

How the results depend on the processing

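Of 15 alternatives, Hspb1 kept its direction in all, at -2.19 to -1.74, and passed in 10, with adjusted p of 0.0082 to 0.159. In limma-voom on estimated reads, chosen after seeing the data, it was at -2 and did not pass. Members called were 0 in limma-voom and 0 to 1 with each library left out. Hspb8 (0.51 to 0.77, adjusted p 0.0645 to 0.266), Hsp90aa1 (-0.78 to -0.58, adjusted p 0.0558 to 0.197) and Hspa1b (-2.27 to -0.59, adjusted p 0.0831 to 0.325) kept their directions and passed in none. Over all genes, 139 were called, against 45 in limma-voom (14 higher and 31 lower) and 5 to 192 with each library left out (1 to 43 higher, 3 to 149 lower): 8 without vehicle library 2, 5 without vehicle library 3 and 7 without SR4 library 2. The cause was not tested. Other chaperone genes called were 0 in every alternative. The replicate numbers are shared by 2 pairs, whose deviations correlated at 0.17 and 0.11, and the labels do not say what they mark. With the replicate block 452 genes were called (183 higher and 269 lower), Hspb1 stayed called and Hspa8 turned to -0.09. Vehicle library 3 has no partner, so the block fit rests on the 2 pairs and is no separate check. The block placed Hspb1 at -2.19, with its lowest limma adjusted p, 0.0082. Without vehicle library 3 and without the block, Hspb1 was also at -2.19 and was not called (limma adjusted p = 0.0599). With only the totals made equal, Hspa8 turned to -0.1, Hsf1 to -0.06 and Cct7 to -0.03, where the median of all genes tested was -0.13. With each library left out, values ran from -0.09 to 0.1 for Hspa8, -0.13 to 0 for Hsp90ab1, -0.42 to 0.08 for Hsph1, -0.04 to 0.29 for Dnajb1 and -0.21 to 0.33 for Hsf1, and signs turned for Hspa8 to -0.09 without vehicle library 3 and -0.07 without SR4 library 2, Hsp90ab1 to 0, Dnajb1 to -0.04 and Hsf1 to -0.21 without SR4 library 2, and Hsph1 to 0.08 without vehicle library 2 and 0.06 without SR4 library 1. Hspb6 (-0.04 to 0.31) turned without SR4 library 1 and Ep300 (-0.36 to 0.02) without SR4 library 2. None of these 8 genes passed in any alternative. Jun, Tbc1d31 and Fam131c passed in 10 alternatives, Tat, Hbb-bs and Acaca in 12, LOC100503676 in 9 and Htra3 in 1. edgeR and DESeq2 on recovered reads, which had been planned, were not run, since only 85.3% of estimated reads were whole. A fit without 1 of the 2 SR4 libraries assumes that the other varies like the vehicle libraries.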
